A study of Arabidopsis thaliana with 16 samples.

Results

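The changes described here are those that 1-naphthaleneacetic acid (NAA), a synthetic auxin that enters cells readily, made in Arabidopsis roots that had not received cycloheximide (CHX, an inhibitor of protein synthesis). The members were chosen by treatment label alone, 8 of the 16 arrays of the series: 2 of NAA roots and 2 of NAA+DEX roots, set against 2 of DEX roots and 2 of mock roots. The other 8 arrays had CHX and serve only for the last comparison. All plants were of 1 transgenic genotype, puchi-1 mutants carrying gPUCHI:GR, which is PUCHI fused to the glucocorticoid receptor (GR) and driven by PUCHI's own regulatory region. Such a fusion stays in the cytoplasm until the steroid dexamethasone (DEX) is given. All groups therefore shared the mutation and the transgene, and no untransformed or wild-type plants were among them. Seedlings were 5 days old, grown on agar in continuous light, and were treated for 4 h before the roots were taken: NAA at 1 µM, NAA+DEX with 2 µM DEX added, DEX at 2 µM alone, and mock with 0.1% DMSO. The submitters describe the 2 RNA samples of each treatment as independent sets. The labels do not say whether separate plates or plantings stand behind them, so the p-values measure the spread between these samples. Levels are log2(intensity + 16) from 1 probe set per gene, a scale whose floor is 4 and which understates changes of dim genes. Changes are log2 differences, NAA minus no NAA, and a probe set was called at an adjusted p under 0.05. In RNA from whole roots, fewer cells of a type and less RNA per cell cannot be told apart.

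Auxin is sensed in the nucleus by TIR1/AFB receptors, which mark the Aux/IAA repressors for destruction and so release the ARF transcription factors that those repressors hold back. Genes switched on in this way include the Aux/IAA genes themselves and GH3 genes, whose enzymes couple auxin to amino acids, so that the response is damped as it builds. In roots, auxin slows cell elongation and starts lateral roots from pericycle cells through the LBD16 and LBD29 factors, with the AP2/ERF factor PUCHI acting in the young primordium.

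The 8 arrays were alike in scale, with median levels of 7.58 to 7.63, and replicates correlated at 0.987 to 0.989 across probe sets. The first principal component held 66.1% of the variance and separated the arrays by NAA, with scores of 46.2 to 49.3 on the NAA arrays and -48.3 to -47.1 on the others, while the second held 6.90%. The 3' to 5' signal ratio of GAPDH, a measure of RNA integrity, was 1.31 ± 0.302 with NAA and 1.38 ± 0.179 without it in one probe pair, and 1.14 ± 0.0388 and 1.07 ± 0.0512 in the other (SD, n = 4 each, over both DEX states as elsewhere). A single gene is named for 13513 of the 22810 probe sets on the array; another 503 carry several genes and 8730 have no listed gene, so many familiar auxin genes are not named here.

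NAA changed a large part of the measured transcripts. Of 22746 probe sets, 8948 (39.3%) were called, 4450 higher (19.6%) and 4498 lower (19.8%) with NAA. At a size of 2-fold or more, 747 rose (3.28%) and 1005 fell (4.42%), 7.7% in all, and at 8-fold or more 68 rose and 52 fell. The 4 arrays with NAA lay beyond all 4 without it for 8538 probe sets (37.5%), among them 7913 of those called (88.4%). Counted by gene with 1 probe set each, 2432 of 13356 genes rose (18.2%) and 2335 fell (17.5%), with a median change of 0.01. These gene shares are the background for the counts of each gene list below.

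The largest rise of any named gene was that of GH3.3, which couples auxin to amino acids. Its level was 14.39 and 14.49 in the NAA roots and 14.59 and 14.49 in the NAA+DEX roots, against 5.83 and 6.20 in mock roots and 6.24 and 6.22 in DEX roots. No array with NAA came near those without it, and the change was 8.37 ± 0.08 (SE; adjusted p = 5.30e-14), a 331-fold rise. GH3.1 rose 54-fold and WES1, also known as GH3.5, rose 23.1-fold, with changes of 5.75 and 4.53, while GH3.17 rose by 0.52. In all, 4 of the 5 GH3 genes with a name rose and none fell, with a median change of 4.53, and all 4 were called in both DEX states.

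Of the named genes, IAA29, an Aux/IAA repressor, had the largest rise after GH3.3. It stood at 11.43 and 11.65 in the NAA roots and 11.42 and 11.38 in the NAA+DEX roots, against 5.34 and 5.74 in mock roots and 5.02 and 5.23 in DEX roots. The NAA and NAA+DEX arrays were thus alike, and the groups did not overlap; the change was 6.14 ± 0.11 (SE; adjusted p = 5.02e-12), or 70.4-fold. IAA30 and IAA20, which lack the degron of most Aux/IAA proteins, rose by 4.02 and 1.999, and IAA18 by 1.95. IAA20 was higher on both NAA+DEX arrays, at 8.18 and 8.43, than on both NAA arrays, at 7.46 and 7.69, but the difference of its change between DEX states was not called (adjusted p = 0.732). One member fell: IAA33 had 5.85 ± 0.37 with NAA and 6.47 ± 0.33 without it (SD, n = 4 each), a change of -0.63 ± 0.16 (SE; adjusted p = 0.00957), with overlapping arrays and no call when all 16 arrays shared a fit (adjusted p = 0.0594). Over the list, 4 of 7 rose, 1 fell and 2 were not called, with a median of 1.95.

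Genes for auxin synthesis, glucosylation and transport fell where they were called. YUC6, a flavin monooxygenase of auxin synthesis, had 4.37 and 4.36 in the NAA roots and 4.38 and 4.31 in the NAA+DEX roots, against 6.70 and 6.41 in mock roots and 6.77 and 6.90 in DEX roots. All 4 NAA values lay close to the floor of the scale, and the change was -2.34 ± 0.17 (SE; adjusted p = 6.49e-07). UGT74D1, a glucosyltransferase that acts on auxins, and WAG2, a kinase that directs auxin efflux carriers, fell by 0.89 and 0.57. Of the 8 genes in the list of auxin synthesis, glucosylation and transport, 4 fell and none rose, with a median of -0.56. Of these falls 3 were called in both DEX states, while YUC11 (-0.83), a dim gene, was called in neither and lost its pooled call under several alternative settings.

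Both LBD factors with a name, direct links from ARF proteins to lateral root initiation, rose. LBD29 had 12.09 and 12.29 in the NAA roots and 12.18 and 12.23 in the NAA+DEX roots, against 6.23 and 6.43 in mock roots and 6.15 and 6.58 in DEX roots. Its 4 NAA values spanned a narrow range far above the others, and the change was 5.85 ± 0.10 (SE; adjusted p = 2.68e-12), or 57.8-fold. LBD16 had 9.83 and 9.61 in the NAA roots and 10.38 and 10.51 in the NAA+DEX roots, against 7.04 and 7.11 in mock roots and 7.74 and 7.91 in DEX roots. Both NAA+DEX arrays were above both NAA arrays and both DEX arrays above both mock arrays, and the NAA change pooled over these states was 2.63 ± 0.08 (SE; adjusted p = 3.07e-10).

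PUCHI had 10.74 and 10.86 in the NAA roots and 10.92 and 10.79 in the NAA+DEX roots, against 7.89 and 7.72 in mock roots and 7.06 and 6.91 in DEX roots. All 4 NAA arrays sat close together, while the DEX arrays were below the mock arrays, so that the change was 3.87 with DEX and 2.997 without it, and 3.44 ± 0.15 (SE; adjusted p = 6.15e-09) pooled. The labels do not say whether the PUCHI probe set reads the transgene's transcript, that of the mutated gene, or both. BBM, an AP2 factor of root stem cells, rose by 0.80, and UPB1, which restrains peroxidase genes where cells begin to elongate, fell by 0.43. The list of lateral root and meristem regulators, which holds the LBD genes and PUCHI, had 5 of 10 higher and 1 lower, with a median of 0.47. All but 1 of these rises were called in both DEX states. The exception, SHI (0.54), had overlapping arrays, was called in neither state and lost its pooled call under several alternative settings.

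Signalling peptides of the CLE and RALF families changed in both directions. CLE44, which encodes the peptide TDIF that keeps vascular stem cells from becoming xylem, had 10.65 and 10.71 in the NAA roots and 10.57 and 10.92 in the NAA+DEX roots, against 7.15 and 7.07 in mock roots and 7.33 and 7.29 in DEX roots. All NAA arrays stood above the rest, and the change was 3.50 ± 0.08 (SE; adjusted p = 5.06e-11), or 11.3-fold. CLE26 rose by 1.32. The RALF peptides, which raise the pH outside the cell and slow growth, showed only falls among the called members named here: RALFL24 (-0.76), RALFL27 (-0.56), RALFL22 (-0.52) and RALFL32 (-0.45). Over the 18 CLE and RALF genes, 2 rose and 7 fell, with a median of -0.09.

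Of the 20 genes with the largest rise, 14 are known here by locus alone or through a synonym. AT4G37295 had 12.26 and 12.24 in the NAA roots and 12.09 and 12.18 in the NAA+DEX roots, against 6.66 and 7.16 in mock roots and 7.02 and 6.52 in DEX roots. Its neighbour AT4G37290 had 10.35 ± 0.08 with NAA and 6.05 ± 0.26 without it (SD, n = 4 each). The changes were 5.35 and 4.30. The plot of levels by array shows no overlap for either, which the rule for naming the 20 largest rises required. Others were AT1G30760 (4.58), AT5G17340 (4.25), AT1G60010 (4.24) and AT1G73610 (4.16). AT5G52050, listed as the detoxification efflux carrier DTX50, had 7.90 and 7.87 in the NAA roots and 8.17 and 8.23 in the NAA+DEX roots, against 4.18 and 4.19 in mock roots and 4.25 and 5.07 in DEX roots. The mock arrays lay near the floor, so that its change of 3.62 is a low estimate. The other 7 changes in this set ran from 3.57 in AT3G28420 to 4.01 in AT3G51410. The 2 largest rises among probe sets without a listed gene were 5.96 and 5.87, sizes between those of IAA29 and GH3.1.

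**Figure D1:**
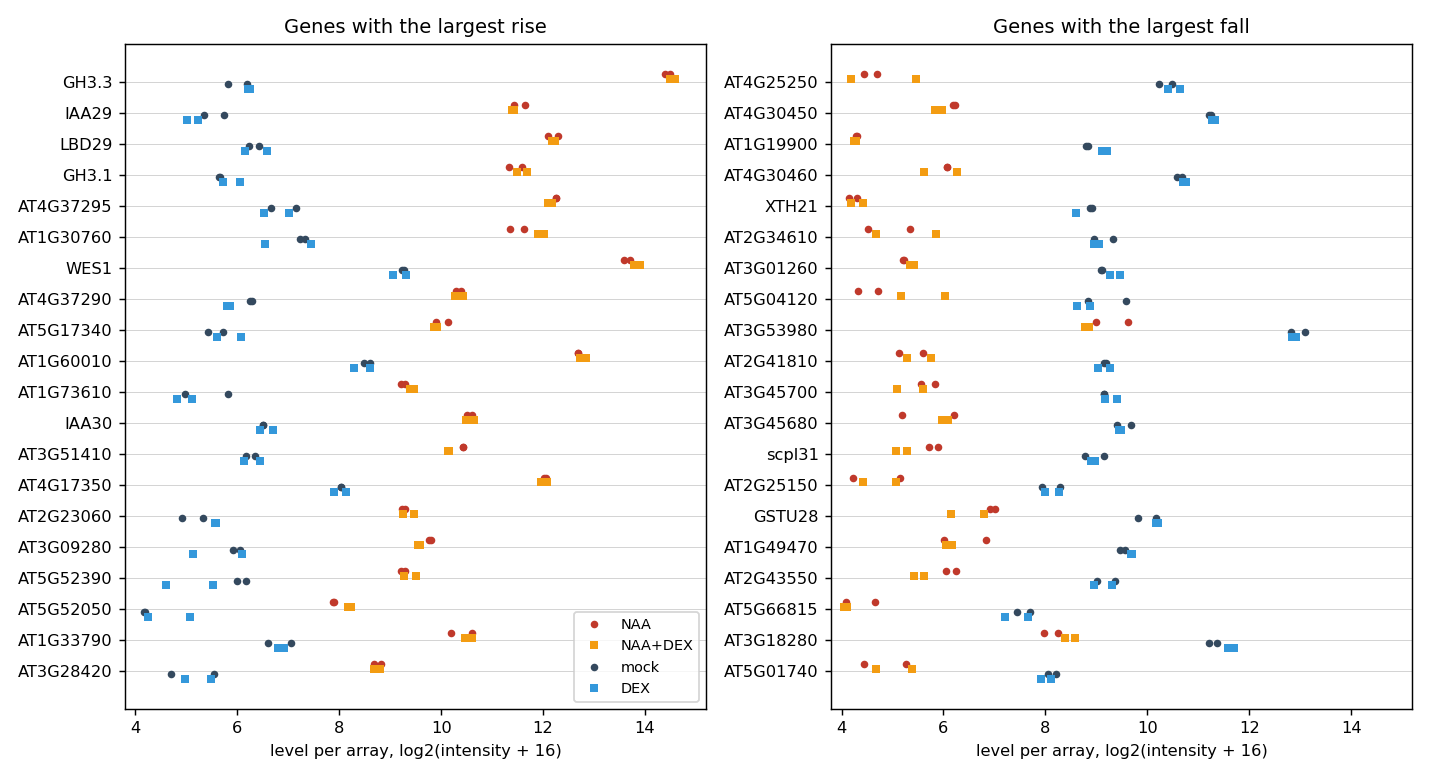
Level per array, as log2(intensity + 16), of the 20 named genes with the largest rise (left) and the 20 with the largest fall (right); each point is 1 array, circles without DEX and squares with DEX, and NAA arrays are red and orange. In every gene shown the 4 arrays with NAA lie apart from the 4 without it, by construction of the naming rule, and NAA and NAA+DEX arrays mostly fall together.

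The largest fall was that of AT4G25250, which had 4.44 and 4.70 in the NAA roots and 4.18 and 5.46 in the NAA+DEX roots, against 10.48 and 10.24 in mock roots and 10.63 and 10.40 in DEX roots. The arrays without NAA were tightly grouped and those with NAA scattered near the floor, and the change was -5.74 ± 0.22 (SE; adjusted p = 2.32e-09), or 53.6-fold lower with NAA. The neighbours AT4G30450 and AT4G30460 fell together, by 5.21 and 4.67. AT4G30450 had 6.24 and 6.18 in the NAA roots and 5.84 and 5.97 in the NAA+DEX roots, against 11.21 and 11.26 in mock roots and 11.34 and 11.26 in DEX roots. AT1G19900 followed with -4.70, then XTH21 with -4.49 and AT2G34610 with -3.98. AT5G04120 differed most between DEX states among the 20 by size of change, with -4.69 without DEX and -3.16 with it, although that difference was not called (adjusted p = 0.703). The 2 largest falls among probe sets without a listed gene were -4.84 and -4.77.

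Several cell wall families held more falls than rises. XTH21, a xyloglucan endotransglucosylase that cuts and rejoins wall polymers in growing roots, had 4.30 and 4.15 in the NAA roots and 4.18 and 4.42 in the NAA+DEX roots, against 8.87 and 8.92 in mock roots and 8.60 and 8.60 in DEX roots. Its NAA values were near the floor on all 4 arrays, and the change was -4.49 ± 0.15 (SE; adjusted p = 8.49e-10), or 22.4-fold lower. XTH32 (-2.30), XTH16 (-1.66) and XTH33 (-0.82) also fell, while XTH18 rose by 0.61. Of 10 XTH genes, 5 fell and 1 rose, with a median of -0.23.

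Expansins, which loosen the wall, moved both ways. EXPB1 had 6.52 and 6.09 in the NAA roots and 5.40 and 6.35 in the NAA+DEX roots, against 9.10 and 9.002 in mock roots and 9.34 and 9.24 in DEX roots. EXPA4 had 13.47 and 13.57 in the NAA roots and 13.70 and 13.57 in the NAA+DEX roots, against 12.12 and 11.80 in mock roots and 11.83 and 11.79 in DEX roots. Neither gene's groups overlapped, and the changes were -3.08 ± 0.21 (SE; adjusted p = 2.68e-07) for EXPB1 and 1.70 ± 0.08 (SE; adjusted p = 1.83e-08) for EXPA4. EXPA20 rose by 2.28, and EXLA2, EXPA8 and EXLB1 fell by 1.68, 1.49 and 1.46. In all, 4 of 19 rose and 7 fell, every one of them called in both DEX states, with a median of -0.15.

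The TBL genes, whose products acetylate wall polysaccharides, mostly fell: 13 of 24 were lower and 1 higher, with a median of -0.45. The largest falls were TBL21 (-1.66), TBL19 (-1.61) and TBL38 (-1.52), and the rise was TBL36 (1.02). The tubulins, the subunits of the microtubules that guide wall synthesis, had 6 of 7 lower, none higher and a median of -0.59. TUB1 had 9.68 and 9.56 in the NAA roots and 9.58 and 9.65 in the NAA+DEX roots, against 11.22 and 11.15 in mock roots and 11.34 and 11.29 in DEX roots. The 4 NAA values lay within a narrow band below all the others, and the change was -1.63 ± 0.06 (SE; adjusted p = 9.91e-10). TUB5, TUB6, TUA6 and TUB9 fell by 0.34 to 0.74.

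The other wall lists were more mixed. Among 15 cellulases of family GH9, 5 fell and 2 rose, with GH9C3 at -1.01 and GH9C2 at 0.97 as the ends of the range of called changes. Of 8 cellulose synthase-like genes 3 fell and none rose, the pectin enzymes had 2 of 7 lower and none higher, and the class III peroxidases had 1 of 7 higher and 2 lower. The pectin methylesterase ATPMEPCRD fell by 1.47 and the peroxidase AT2G41480, also listed as PRX25, by 2.11. These shares stand beside 18.2% of all genes higher and 17.5% lower.

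Genes for building ribosomes rose together, each by a modest amount. The list holds subunits of RNA polymerase I, which makes ribosomal RNA, and factors that process that RNA; 11 of its 12 genes rose, none fell and all 11 were called in both DEX states, with a median of 0.80. NRPA1, the largest polymerase I subunit, had 9.68 and 9.38 in the NAA roots and 9.38 and 9.63 in the NAA+DEX roots, against 8.39 and 8.48 in mock roots and 8.65 and 8.54 in DEX roots. The groups did not overlap, and the change was 1.003 ± 0.09 (SE; adjusted p = 3.07e-06). NRPA2 rose by 0.91, the ribosome assembly factor AT5G14520, listed as PES, by 0.91, RRP41L, related to the core of the RNA-degrading exosome, by 0.82, and IMP4, of the small-subunit processome, by 0.80.

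Cell division genes showed more rises than falls, 13 of 26 against 2, with a median of 0.27, and 4 of the rises and 1 of the falls were called in both DEX states. The rises were small: POLA3 (0.77) and ICU2 (0.56), subunits of DNA polymerase alpha, and PRL (0.56), the replication helicase subunit MCM7. Of these, POLA3 had 9.59 ± 0.22 with NAA and 8.82 ± 0.11 without it (SD, n = 4 each). The largest change in the list was a fall, in ATMAP65-6, a microtubule-bundling protein, by 1.86. No histone gene rose, and 2 of 8 fell, HON4 (-0.24) and HTB11 (-0.16), with a median of -0.10, beside 17.5% of all genes lower. Neither was called in both DEX states, and both lost their pooled call under some alternative settings.

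**Figure D2:**
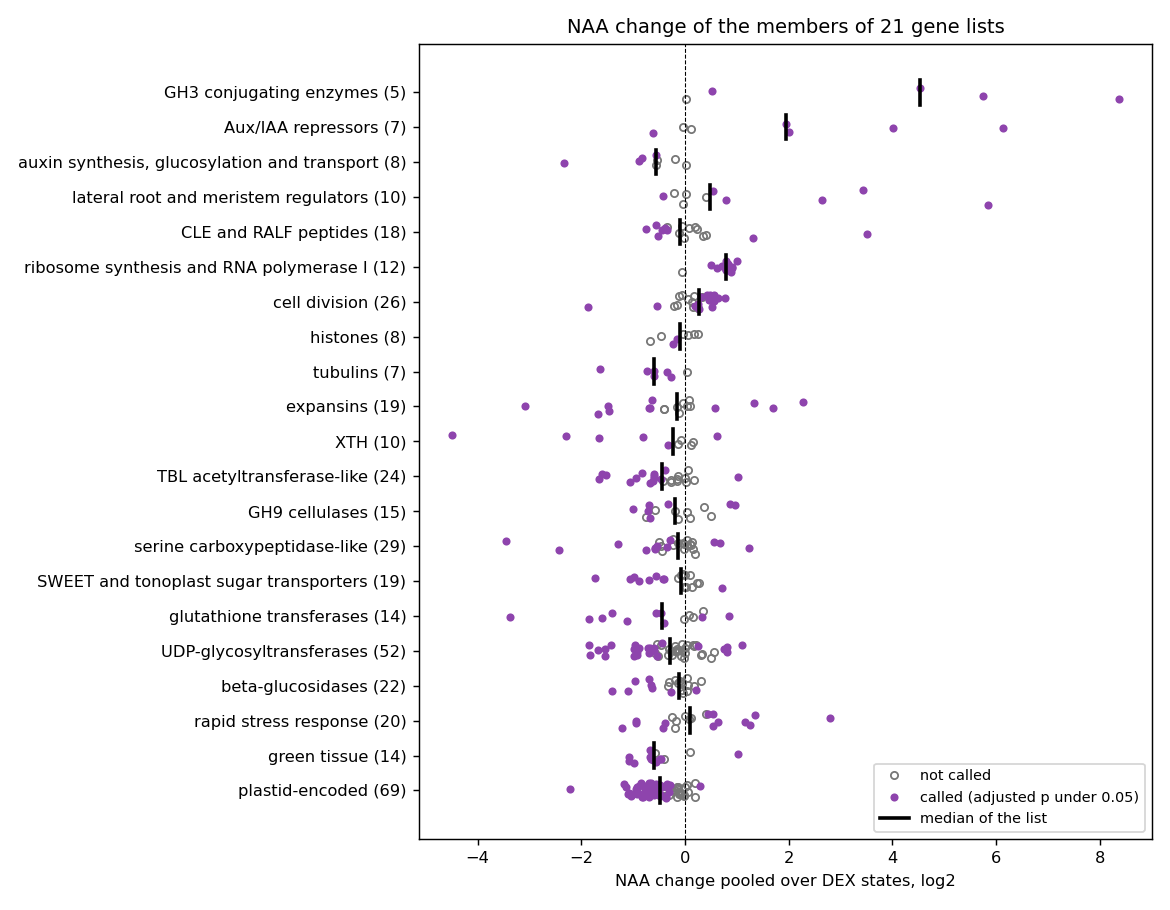
NAA change of each measured member of 21 gene lists, as log2 differences pooled over DEX states; each circle is 1 gene, filled where it was called, the bar is the list's median, and the number in brackets is the count of genes. Ribosome synthesis genes sit in a tight cluster with a median of 0.80, tubulins, TBL and plastid-encoded genes lie mostly below 0, and the GH3 and Aux/IAA genes reach the largest rises.

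Transport genes changed in both directions. AT1G59740, listed as NPF4.3 of the nitrate and peptide transporter family, had 11.17 and 11.16 in the NAA roots and 10.82 and 10.98 in the NAA+DEX roots, against 7.61 and 7.73 in mock roots and 7.64 and 7.25 in DEX roots. The groups did not overlap, and the change was 3.47 ± 0.09 (SE; adjusted p = 7.07e-11), or 11.1-fold. AT3G25260 rose by 1.16, whereas AT3G21670 and AT2G26690 fell by 1.35 and 1.21, so that 3 of 12 members of that list rose and 3 fell. Sugar carriers mostly fell where they were called. SWEET14, a plasma membrane exporter, fell by 1.74, and SWEET17 and SWEET16, of the vacuole membrane, by 1.06 and 0.69. Of 19 SWEET and tonoplast sugar transporter genes, 8 fell and 1 rose, with a median of -0.07. In both DEX states 4 of the falls were called, and SWEET3 was called in neither. The rise, SAG29 (0.72), was called with DEX only. Mean levels were under 7 in 14 of these genes.

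Among enzymes that conjugate small molecules, more genes fell than rose. GSTU28, a glutathione transferase, had 6.91 and 7.01 in the NAA roots and 6.15 and 6.80 in the NAA+DEX roots, against 9.81 and 10.17 in mock roots and 10.17 and 10.21 in DEX roots. Arrays with and without NAA were apart, and the change was -3.37 ± 0.17 (SE; adjusted p = 2.03e-08), or 10.3-fold lower. GSTU26 (-1.85), GSTU27 (-1.60), GSTU18 (-1.40) and GSTU20 (-1.11) fell too, and GSTU16 rose by 0.84; over 14 glutathione transferases 8 fell and 2 rose, with a median of -0.44. Of 52 UDP-glycosyltransferases 20 fell and 5 rose, with a median of -0.30. Among these were UGT74B1 (-1.85), which acts in glucosinolate synthesis, UGT84A1 (-1.68), which acts on phenylpropanoid acids, and UGT78D1 (-1.54), a flavonol rhamnosyltransferase.

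Flavonoid genes, a list that shares the UGT78D genes, had 4 of 8 lower and 1 higher, with CHIL, an enhancer of chalcone formation, at -0.90. The beta-glucosidases had 7 of 22 lower and 1 higher, led by BGLU44 (-1.41). The CYP71B cytochromes P450 had 4 of 18 lower and 1 higher, led by CYP71B37 (-1.33). Over all genes 18.2% were higher and 17.5% lower. Of the falls, 4 beta-glucosidases and 2 CYP71B genes were called in both DEX states. Many members were dim, with mean levels under 7 in 15 beta-glucosidases and 11 CYP71B genes. Among serine carboxypeptidase-like proteins 9 of 29 fell and 3 rose: scpl31 had 5.49 ± 0.38 with NAA and 8.95 ± 0.15 without it (SD, n = 4 each), and scpl40 fell by 2.42 while scpl28 rose by 1.23. Of 11 subtilases 3 fell and none rose, the largest fall being that of ATSBT5.2 (-2.77).

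Among genes of other hormones, BRL1, a brassinosteroid receptor of vascular cells, had 9.36 and 9.58 in the NAA roots and 9.35 and 9.40 in the NAA+DEX roots, against 6.32 and 7.13 in mock roots and 6.99 and 6.96 in DEX roots. All 4 NAA values were above the others, and the change was 2.57 ± 0.16 (SE; adjusted p = 1.04e-07), or 5.95-fold. It was the only rise among 14 receptor kinases, of which 4 fell; THE1, a sensor of wall integrity, fell by 0.97. In the cytokinin list 3 of 8 fell and none rose, with the response regulator RR16 at 5.13 ± 0.39 with NAA and 6.57 ± 0.21 without it (SD, n = 4 each) and a change of -1.44. Of these falls 2 were called in both DEX states. The remaining one, ARR15, changed by -1.64 with DEX but by -0.12 without it (adjusted p = 0.808). The direct test of that difference did not call it (adjusted p = 0.655). ARR15 stood at 4.24 and 4.18 in the NAA+DEX roots, close to the floor. Its pooled call was lost under several alternative settings. The gibberellin receptor GID1A fell by 0.69, and 2 of the 3 GID1 genes were lower. Of 8 glutamate receptors 1 fell, GLR3.5 (-0.82).

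Genes of the rapid stress response were split, with 8 of 20 higher, 5 lower and a median of 0.10. ATL63, a RING ubiquitin ligase, had 9.09 and 9.04 in the NAA roots and 8.74 and 8.91 in the NAA+DEX roots, against 6.31 and 5.99 in mock roots and 6.19 and 6.09 in DEX roots. Again no value with NAA reached those without it, and the change was 2.80 ± 0.12 (SE; adjusted p = 4.75e-09). STZ, a zinc finger repressor also called ZAT10, rose by 1.36, the ubiquitin ligase PUB23 by 1.25 and WRKY53 by 1.16, whereas CML42, a calmodulin-like protein, fell by 1.22 and PUB19 by 0.95. Of 7 WRKY factors, some of which are also in the stress list, 4 rose and none fell.

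The shares in the lists that follow stand beside 18.2% of all genes higher and 17.5% lower. The bZIP factors had 5 of 23 higher, among them bZIP48 (1.66), bZIP44 (1.65) and EEL (1.52), and 5 lower, led by BZIP61 (-1.07). In both DEX states 4 of these rises and 2 of these falls were called. The fall of bZIP58 was called with DEX but not without it, and lost its pooled call under some alternative settings. In the AP2/ERF list 2 of 11 rose, PUCHI and BBM, and 4 fell, among them tny (-2.27), a factor of the DREB group, and SMZ (-1.20), a repressor of flowering. Of 9 ATG8 genes of autophagy, ATG8G rose by 1.98 and ATG8E fell by 0.91, with 2 higher and 4 lower in all. The cold and dehydration list had 3 of 15 higher and 5 lower, with COR47 at -0.62. In both DEX states 3 of its rises but only 1 of its falls were called. The iron list had 3 of 12 higher and 4 lower, with 2 rises and 2 falls called in both DEX states. The falls of LEA4-5 in the first list, and of BHLH101 and PYE in the second, lost their pooled call under several alternative settings.

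Markers of other cell types and of organelles moved with NAA. Of 69 plastid-encoded genes 45 were lower and 1 higher, with a median of -0.48, and 26 of the falls were called in both DEX states. psbA, which encodes the D1 protein of photosystem II, had 6.95 and 7.22 in the NAA roots and 7.22 and 7.08 in the NAA+DEX roots, against 9.40 and 9.60 in mock roots and 9.30 and 9.002 in DEX roots. The groups did not overlap, and the change was -2.21 ± 0.12 (SE; adjusted p = 4.18e-08). By complex, 12 of 15 ribosomal protein genes, 5 of 6 cytochrome b6f genes, 4 of 6 ATP synthase genes, 3 of 4 RNA polymerase genes and 8 of 15 photosystem II genes fell, whereas the NADH dehydrogenase-like complex had 4 of 10 lower and 1 higher. Of 14 nuclear genes of green tissue 10 fell and 1 rose, with a median of -0.59 and with PSBW at -1.08 and PSAN at -0.99. The summed intensity of the 14 green tissue genes was 3753 to 4036 with NAA and 3839 to 4520 without it, and that of the plastid-encoded genes 66204 to 84997 with NAA and 91659 to 110877 without it (n = 4 arrays each), and no member had a mean of 0. The part that plastid content or traces of green tissue play in the other falls was not tested.

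The labelled tissue, root, was borne out by root hair genes: EXPA7 had 9.19 ± 0.10 with NAA and 9.83 ± 0.22 without it (SD, n = 4 each) and EXPA18 had 9.86 ± 0.08 with NAA and 10.55 ± 0.13 without it (SD, n = 4 each). Both fell, by 0.64 and 0.69. Of 4 genes of the endodermis 2 fell and none rose, GSO1, a receptor kinase needed to seal the Casparian strip, by 0.64. The xylem list had 2 of 5 lower, with IRX15-L, of xylan synthesis, at -0.76, and the phloem list 1 of 2. That phloem gene, OPS (-0.44), was not called in both DEX states, nor when all 16 arrays shared a fit (adjusted p = 0.277). Of 16 mitochondrion-encoded genes 5 fell and 2 rose, with nad5 and nad4, subunits of respiratory complex I, at -1.41 and -1.15.

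The response repeated in both DEX states. The 2 comparisons share no array, but their spread was estimated together over all 8 arrays, so their calls are not fully independent. NAA called 6442 probe sets without DEX (28.3%) and 6741 with DEX (29.6%), and 5054 were called the same way in both (22.2% of all tested), 2534 higher and 2520 lower. The shared set made up 78.5% of the calls without DEX and 75.0% of those with DEX, and 8 probe sets were called in opposite ways. Of 1793 called at 2-fold or more without DEX, 1617 (90.2%) were called the same way with DEX and 1397 again reached 2-fold, whereas of 4649 smaller ones 3437 (73.9%) were called again. Calls made in 1 state alone numbered 1380 without DEX and 1679 with DEX, and the sign was the same in the other state for 97.4% of the calls without DEX and 97.6% of those with DEX. With each state fitted on its own 4 arrays, 5840 probe sets were called without DEX, 6174 with DEX and 4523 the same way in both.

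**Figure D3:**
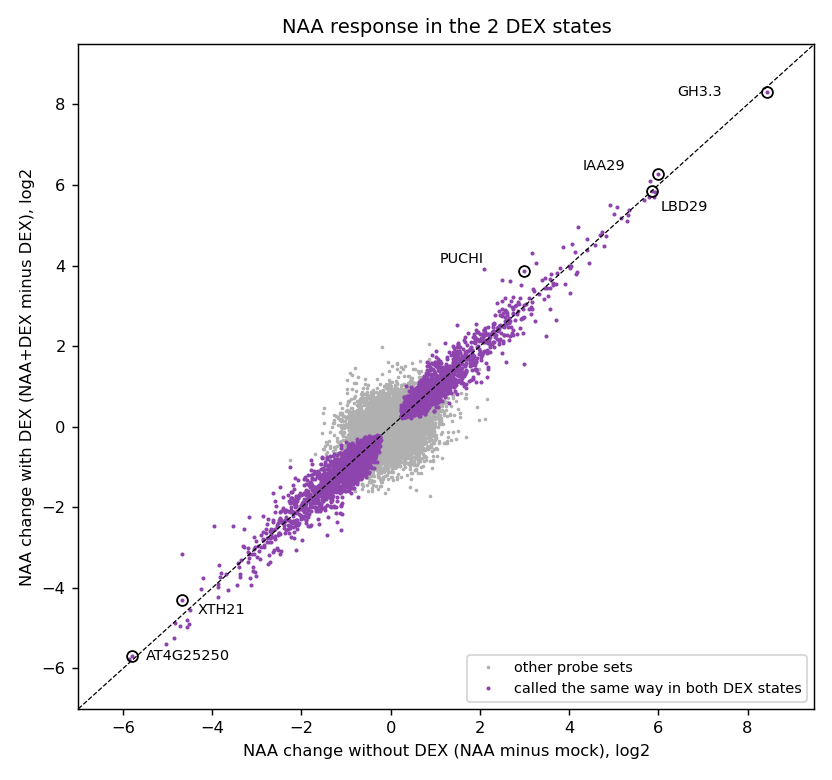
NAA change with DEX (vertical axis, NAA+DEX minus DEX) against the change without DEX (horizontal axis, NAA minus mock), both log2, for all 22746 probe sets; purple points were called the same way in both states and the dashed line marks equal change. The largest changes lie along the line, and PUCHI, at 3.87 with DEX and 2.997 without it, lies above it.

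Over all probe sets the changes in the DEX states correlated at 0.842, as a description across probe sets, which are not independent. Of the 1752 probe sets called at 2-fold or more in the pooled comparison, 1003 were larger in size with DEX, by a median of 0.05 over all 1752. A direct test of whether DEX altered the NAA change called none of 22746 probe sets (0%) at an adjusted p under 0.05, with 1381 at an unadjusted p under 0.05 and a smallest adjusted p of 0.50. The test had a median SE of 0.252, and small differences were not detectable at this number of arrays. A fit with replicate number as a block called 1 probe set, which has no listed gene, and a fit over all 16 arrays called 5, AT1G18700 and 4 without a listed gene.

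The 5 genes with the smallest p in that test include PUCHI, whose NAA change was larger with DEX by 0.88 ± 0.15 (SE; unadjusted p = 0.000137, adjusted p = 0.655, and 0.377 in the fit over all 16 arrays). AT1G18700 rose by 0.57 without DEX (adjusted p = 0.000515) and fell by 0.30 with DEX (adjusted p = 0.0197). Its difference of -0.87 had an adjusted p of 0.4996 in the 8-array fit and of 0.0286 when all 16 arrays shared a fit, and the pooled comparison did not call it (0.13, adjusted p = 0.514). The other genes with opposite calls were dim: AT4G03790, AT3G45690, AT5G34880, AT4G03370 and AGL103 had mean levels of 4.56 to 4.87 with NAA and 4.56 to 4.95 without it, close to the floor of 4.

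Arrays with CHX showed how far the response differed where protein synthesis was blocked. There NAA called 1017 probe sets (4.47%), of which 674 were called the same way without CHX, against 8948 (39.3%) without CHX. The first count comes from a fit of all 16 arrays and the second from the 8 arrays without CHX; in the fit of all 16 arrays NAA without CHX called 8593. The difference between the NAA changes with and without CHX was called for 5527 probe sets (24.3%). Among the probe sets called at 2-fold or more without CHX, it was called in 715 of the 747 rises and 904 of the 1005 falls, in the rises always toward a lower change with CHX and in the falls always toward a higher one. These probe sets were chosen for a large change without CHX, so their counts are a description.

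The levels behind these differences were of more than 1 kind. GH3.3 had, in roots with CHX, 13.33 and 13.22 in the NAA+CHX group and 13.40 and 13.03 in the NAA+DEX+CHX group, against 11.94 and 12.05 in the CHX group and 11.97 and 12.04 in the DEX+CHX group. Its level with CHX and no NAA was thus already far above the mean of 6.12 in roots with neither NAA nor CHX. Its NAA change was 1.24 with CHX, a difference of -7.13 ± 0.12 (SE; adjusted p = 1.35e-15). GH3.1 and AT4G37295 were likewise high with CHX alone, GH3.1 at 11.12 ± 0.09 with NAA and 10.61 ± 0.17 without it (SD, n = 4 each). AT1G30760, by contrast, was low with CHX in both states, at 5.46 ± 0.41 with NAA and 5.84 ± 0.29 without it (SD, n = 4 each), and LBD29 lay between, at 9.45 ± 0.16 with NAA and 8.28 ± 0.20 without it (SD, n = 4 each).

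Of the falls, AT4G30450 had, in roots with CHX, 6.04 ± 0.09 with NAA and 6.04 ± 0.30 without it (SD, n = 4 each), a level without NAA that was as low as with NAA in roots free of CHX, at 6.06. Its difference was 5.21 ± 0.20 (SE; adjusted p = 1.65e-11). AT1G19900 had intermediate levels with CHX, 6.73 ± 0.27 with NAA and 7.02 ± 0.35 without it (SD, n = 4 each). PUCHI had, with CHX, 8.72 ± 0.18 with NAA and 8.72 ± 0.15 without it (SD, n = 4 each), a change of 0.003 (adjusted p = 0.993), and both means lay between its levels with and without NAA in roots free of CHX. IAA20 had, with CHX, 8.55 ± 0.25 with NAA and 7.19 ± 0.29 without it (SD, n = 4 each), with a change of 1.36 (adjusted p = 5.42e-05).

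**Figure D4:**
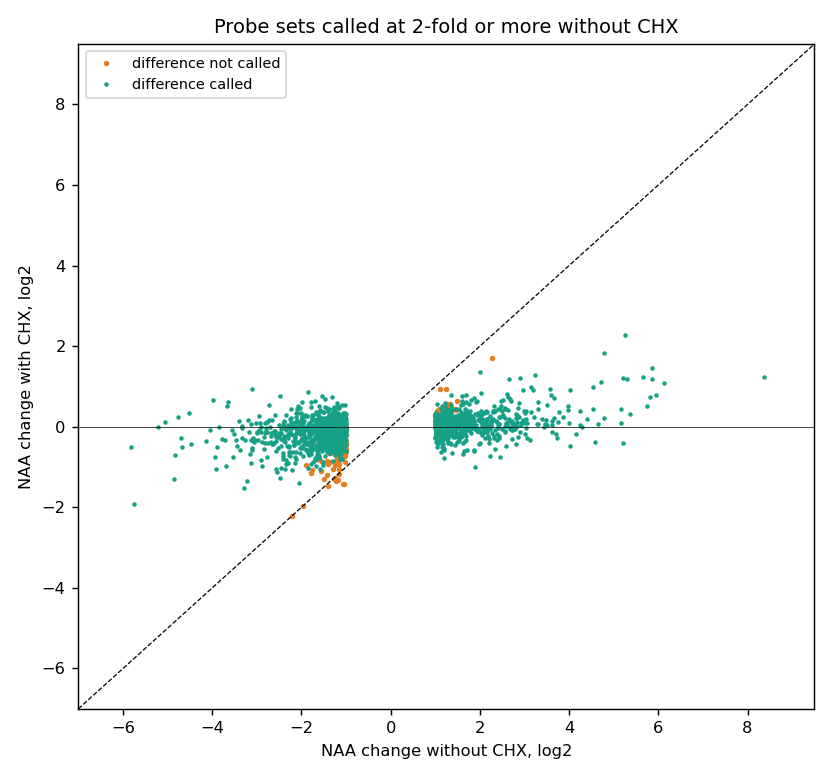
NAA change with CHX (vertical axis) against NAA change without CHX (horizontal axis), both log2 and pooled over DEX states, for the 1752 probe sets called at 2-fold or more without CHX. Green points had a called difference between the CHX states, orange points did not; most points lie along the horizontal line at 0, far from the dashed line of equal change.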

How the data were processed

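RNA from each of the samples was labelled with biotin as cRNA and hybridised to its own Affymetrix 3' array, per the labels' protocols. Per the submitters' processing notes, Affymetrix Expression Console 1.3 produced the signals, and which of its algorithms was run is not stated there. The authors deposited a linear intensity per probe set, scaled so that the mean without the outer 2% was 500 on every array when checked. Values were taken as log2(intensity + 16), with 64 control probe sets left out and 22746 tested. The pooled comparison was fitted with limma 3.58.1 in R 4.3.3 as NAA plus DEX state over 8 arrays, with the variance prior following the mean (5 residual and 6.34 prior degrees of freedom). Changes per DEX state and their difference came from 1 mean per group over the same arrays, and the comparison with CHX from all 16. P-values are 2-sided with Benjamini-Hochberg adjustment over all 22746 probe sets. On simulated data of 22746 probe sets, the pooled fit recovered 75.5% of changes of log2 size 1 and 94.9% of size 2, with 4.38% false calls. Only 200 probe sets were changed there, far fewer than were called in the real data. The 2 arrays per group limit the precision, and groups of 2 were too small to test single arrays that lie apart.

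Symbols were updated for 13436 probe sets from the TAIR10.1 gene table, and for 152 genes measured by more than 1 probe set the brightest on average stood for the gene. Named are the top 20 genes in each direction with no overlap of arrays, up to 6 called members per list, the genes with the smallest p for the difference between DEX states, 5 genes called in opposite ways, 5 per direction with the highest level or the largest difference with CHX, PUCHI, and the 4 unnamed probe sets with the largest changes. The members and the 44 gene lists were chosen with earlier results of these data known. Replicate numbers were not taken as pairs. Alternatives were quantile normalization, pseudocounts of 1 and 64, the brightest 60% of probe sets only, no variance trend, a replicate block, all 16 arrays, only the 4 arrays compared, a minimum of 2-fold, and leaving out each array.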

Additional observations from a re-analysis of the deposited data

Results flagged for a closer look

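The NAA change differed between roots with and without CHX for 5527 probe sets (24.3% of 22746), by the direct test of that difference. The genes with the largest differences, log2 NAA change with CHX minus that without CHX, were GH3.3 (-7.13), GH3.1 (-5.25), IAA29 (-5.05), AT4G37295 (-5.03) and AT1G30760 (-4.97) among the rises. Among the falls they were AT4G30450 (5.21), AT2G34610 (4.65), AT1G19900 (4.42), AT3G45680 (4.25) and AT4G30460 (4.18). No probe set had a called difference between the DEX states in the 8-array fit.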

How the results depend on the processing

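None of the 247 named genes and probe sets changed direction under the alternatives that gave them a value; gene list medians were not recomputed. Rises and falls were near equal in number, and which was the larger depended on the setting: pooled, 4450 rose and 4498 fell, against 4568 and 4478 with quantile normalization, 4171 and 3979 with the brightest 60% of probe sets, and 4319 and 4274 with all 16 arrays in the fit. For the difference with CHX, 2685 were higher and 2842 lower, against 2737 and 2718 with quantile normalization. The count called in both DEX states was 4060 to 4315 when 1 array was left out, the pooled count 8099 to 8385, the count without DEX 4655 to 6373, that with DEX 4941 to 6565, that of the difference between DEX states 0 to 0, and that of the difference with CHX 4960 to 5256. Where the array left out belonged to the comparison itself, the counts were 4655 to 4968 without DEX and 4941 to 5245 with DEX. With a minimum of 2-fold, the counts were 1752 pooled, 1793 without DEX, 1971 with DEX, 1397 in both states and 1657 for the difference with CHX, fewer by construction. The difference between DEX states called 0 probe sets in the 8-array fit, 1 with a replicate block and 5 when all 16 arrays shared a fit; the cause was not tested. Between equally numbered arrays, deviations from the group means correlated at -0.01 to 0.06. Whether equal numbers shared a planting or a batch cannot be told from these values. Apart from the difference between DEX states, the replicate block moved no count by over 1.5 times. Of the 240 named genes and probe sets called, 216 kept their call in every alternative that gave them a value; the 2-fold minimum and the fit of only the 4 arrays compared were run for counts alone, and the filter on low values kept 196 of the 247 named. The lowest counts per DEX state came without mock replicate 1 (4655) and without NAA+DEX replicate 1 (4941). On simulated data with 200 changed probe sets, 49.7% of changes of log2 size 1 were recovered in the comparison without DEX. Far more probe sets were called in the real data, so this share does not measure what was missed in them. No depth applies to arrays; signals near the floor of the scale carry only a bound.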

Other observations

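Genes that neighbour each other in the TAIR10.1 gene table sometimes moved together. Of 5878 adjacent pairs with both genes measured, 41 changed the same way at 2-fold or more and 9 in opposite ways. At that size 6.53% of all genes were called, 2.96% higher and 3.56% lower. At 4-fold or more 7 pairs changed the same way and 1 in opposite ways, where 201 genes (1.505% of those measured) were called at that size. Whether these counts exceed what such shares would give was not tested. The pairs at 4-fold or more were chosen after their values were seen. They were AT4G30450 with AT4G30460 (-5.21 and -4.67), AT4G37290 with AT4G37295 (4.30 and 5.35), AT4G13190 with CLE44 (2.05 and 3.50), AT4G11190 with AT4G11210 (-2.40 and -2.96), AT4G35200 with AT4G35210 (2.07 and 2.81), AT2G43880 with AT2G43890 (-2.01 and -2.78), and the methionine sulfoxide reductases MSRB5 with MSRB6 (-2.11 and -2.25). The pair that moved in opposite ways was AT2G47540 (-3.03) with AT2G47550 (2.13). Whether probes of tandem copies read each other's transcripts was not tested.

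Among genes called at 2-fold or more, those with the highest mean level were EXPA4 with AT5G62350 (1.05), AT2G40360 (1.04), AT2G19970 (2.25) and AT3G08030 (1.09) on the rising side. On the falling side they were AT1G13930 (-1.27), AT3G57020 (-1.33), AT1G62660 (-1.02), ZW9 (-1.40) and MSRB5 (-2.11). MSRB5, which repairs oxidised methionine, had 10.90 and 10.998 in the NAA roots and 11.14 and 11.16 in the NAA+DEX roots, against 13.14 and 13.22 in mock roots and 13.10 and 13.20 in DEX roots, with no overlap between the groups.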
